A study of Caenorhabditis elegans with 4 samples.

Results

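A large set of NHR-6::GFP peaks was found in both ChIP replicates of L4 worms and yet overlapped no peak of the authors' combined list. These shared sites outside the combined list were chosen by the measured peak positions in the 3 deposited lists: a peak of replicate 1 on a nuclear chromosome was taken if it overlapped a peak of replicate 2 by at least 1 bp and overlapped no combined peak. Of 25965 nuclear peaks of replicate 1, 14242 (54.9%) were overlapped by replicate 2, and 10777 (41.5%) were also outside the combined list. Overlapping ones were merged and counted once, which left 8483 regions. They covered 5157 kb, or 5.15% of a nuclear span of 100.2 Mb, against 2707 peaks in the combined list. The same rule started from replicate 2 took 10768 of 29486 nuclear peaks (36.5%), out of 14056 (47.7%) overlapped by replicate 1, and gave 8785 regions.

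NHR-6 is the NR4A-type nuclear hormone receptor of Caenorhabditis elegans, a transcription factor that binds DNA and is known for its role in the development of the spermatheca, the chamber of the hermaphrodite gonad in which eggs are fertilized. NR4A receptors are known to bind as single molecules to an extended hormone-response half-site. In chromatin immunoprecipitation followed by sequencing (ChIP-seq), DNA crosslinked to a protein is recovered with an antibody, and places where reads pile up above an input library are called as peaks. The irreproducible discovery rate procedure then compares the ranks of peaks between replicates and keeps those whose ranks are reproducible, so a site can be listed in both replicates and still be left out of the final list. How the combined list was made here is not stated, and whether that step left out the sites described below was not tested.

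The series comprises 4 libraries of strain OP90, 2 from anti-GFP ChIP and 2 from input DNA, all from L4 hermaphrodites grown at 20 °C and crosslinked with 2% formaldehyde. The worms carried the mutation unc-119(ed3) on chromosome III. Their transgene, wgIs90, which joins a rescuing unc-119(+) to the fusion nhr-6::TY1::EGFP::3xFLAG, was made by biolistic transformation and was not outcrossed, and the labels place the fusion protein in neurons around the pharynx at the L2 stage. No group without the transgene was analysed here, chromatin came from whole animals, and the input libraries have no values here. Nothing in the labels tells whether each replicate was a worm culture of its own, and differences between the 2 lists may therefore be technical. With 2 libraries of a single group no test between groups was possible, and peaks are not replicates. The comparisons below are therefore descriptions, given for each replicate list where both allow it. The lists hold no read counts, so sequencing depth is unknown, and the 95% Wilson intervals cover the counting of regions only. Coordinates are those of build WS220. No genome or annotation of that build was used, so genes and sequences at the regions are not given.

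Shared regions outside the combined list were spread over the whole ranking rather than gathered at its weak end. Peaks were ranked within each list by the authors' score, with ties ordered by peak number and rank 1 for the highest score. In replicate 1 the 10777 peaks had a median rank of 11884, with quartiles at 6456 and 18526 and a range from 138 to 25961. Shared peaks that the combined list did hold had a median rank of 2395, and peaks outside the combined list that replicate 2 did not overlap had a median rank of 16370. The left-out shared peaks thus stood between these classes. In replicate 2 the 3 medians were 12702, 1811.5 and 18274.5, in the same order. The rule excludes the combined list, whose peaks stand high in both rankings, so these ranks carry no test. The name weak sites holds only relative to the combined list. The highest score of a list was a tie among many peaks, 968 in replicate 1 and 1941 in replicate 2. Left-out shared peaks made up 25 and 129 of these, and shared peaks in the combined list 933 and 1725.

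The share of peaks that were shared and left out peaked below the top of each list. In the first 5% of the ranking of replicate 1, 84.6% of peaks were shared and in the combined list and 11.9% were shared and left out. The left-out share rose to 59.1% at ranks 3896 to 5193 and then fell to 30.9% in the last 5%. In replicate 2 it was 2.64% in the first 5%, 56.9% at ranks 4424 to 5898 and 26.3% in the last 5%. Among peaks outside the combined list alone, the share overlapped by the other replicate fell from 79.1% in the first 5% of replicate 1 to 31.6% in the last. In replicate 2 it was 68.4% in the first 5%, 75.4% in the second and 26.7% in the last. Each full list covered a similar part of the nuclear span, 12.35% in replicate 1 and 12.39% in replicate 2. An overlap of 1 bp was enough for sharing, so these parts of the span are not the overlap that list density alone would give. The part of list density in the overlap was not tested.

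**Figure D1:**
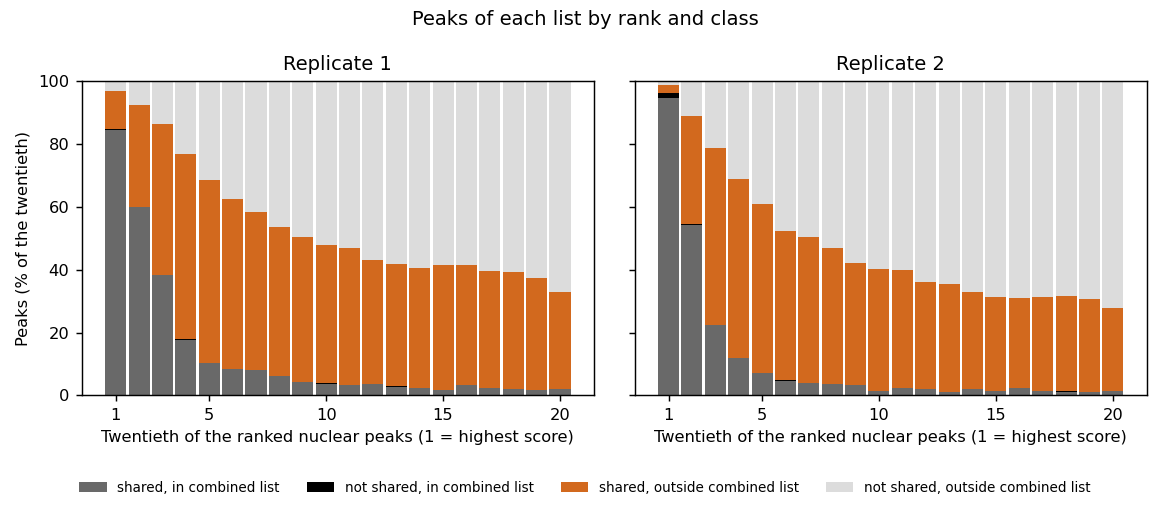
Stacked bars give the percentage of nuclear peaks (y axis) of each class in consecutive 5% slices of the score ranking (x axis, slice 1 holds the highest scores), for replicate 1 at left and replicate 2 at right. The orange class, shared regions outside the combined list, reaches 59.1% in the fourth slice of replicate 1 and 56.9% in that of replicate 2.

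The boundary between left-out and combined peaks was not a single rank. The 100 lowest-ranked combined peaks had median best ranks of 2682 in replicate 1 and 2470 in replicate 2, and the median of their worse rank, the larger of both, was 4198. They were not the 100 combined peaks with the largest worse rank, since the 95th percentile of that rank over combined peaks was 8413.5. The 100 left-out regions with the smallest worse rank had median ranks of 1876 and 2535.5, with a median worse rank of 2761. The 2 sets were thus picked by unlike orders, and the comparison shows only that they overlap in rank. The median worse rank of the 2675 combined peaks found in both replicates was 2514, and 38 of the 8483 left-out regions (0.448%) had a worse rank at or below it. At the 90th percentile of combined peaks, a worse rank of 6149, the count was 885 (10.4%).

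The score order and the authors' peak numbers differed near the top of the lists, most in replicate 1, and left-out peaks moved with the order. By score, the share of peaks in the combined list fell to 49.0% at ranks 1001 to 1200, was 45.5% at ranks 2001 to 2200, 88.5% at ranks 2601 to 2800 and 38.0% at ranks 2801 to 3000. By peak number, no step between neighbouring bins of 200 rose by more than 3.5 percentage points, against 18.5 by score. In replicate 2 these steps were 4 and 16 points. A total of 417 peaks that stood at places 969 to 1385 by number were placed at ranks 2386 to 2826 by score, and 82.0% of them overlapped the combined list. Another 1039 peaks were placed 200 or more places higher by score than by number, and 48.4% of them overlapped it. Among the first 1000 nuclear peaks of replicate 1, 40 were shared and left out by score and 28 by peak number. In replicate 2 both orders gave 11. Its first 1941 ranks by score are a tie ordered by peak number, so this equality says nothing on how well the orders agree. In replicate 1 the tie ends at rank 968. Of the 100 best left-out regions by score, 91 were also among the 100 best by peak number.

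The ranks of a region in both replicates were often far apart. Across the 8483 regions, the best ranks in both replicates had a Spearman's rho of 0.24, a description across regions of the same pair of libraries. Across the 2675 combined peaks found in both, rho was 0.29. Expressed as a percentage of each list, the median region stood at 41.6% in replicate 1 and at 37.3% in replicate 2. The median difference between the positions of 1 region in the 2 lists was 21.3 percentage points, and 1279 regions (15.1%) differed by 50 points or more. In the best 10% of both lists stood 54 regions (0.637%), and 1019 (12.0%) were in the best 10% of a single list. The rule removes peaks in the combined list, which held most of the highest ranks, so the scarcity of regions high in both lists is no result, and the rho is given for peaks left by that rule. In the best 25% of both stood 1142 regions (13.5%), and 1605 (18.9%) were in the lower 50% of both. The highest score was reached in both lists by 8 regions and in a single list by 158.

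**Figure D2:**
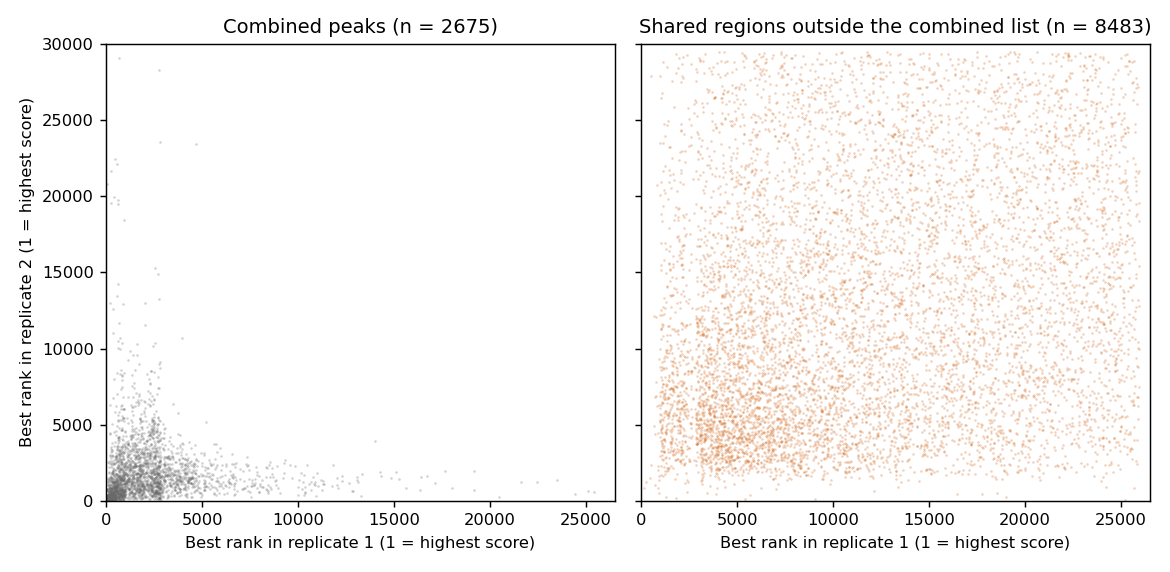
Each point is 1 combined peak found in both replicates (left, n = 2675) or 1 shared region outside the combined list (right, n = 8483), at its best rank in replicate 1 (x axis) and in replicate 2 (y axis), where 1 is the highest score. Combined peaks lie close to the axes, with a median worse rank of 2514, while left-out regions fill most of the plane, with a median worse rank of 15958.

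Most left-out regions were a single peak in each list. Of the 8483 regions, 6450 (76.0%) held 1 peak of replicate 1, 1812 held 2, 188 held 3, 27 held 4, 5 held 5 and 1 held 6. A single peak of each replicate made up 5108 regions (60.2%). All but 1 of the 10777 peaks had the usual width of replicate 1, 530 bp, and the regions ranged from 144 to 2217 bp. A region takes the best rank among its peaks, so regions of several peaks rank better by construction. They made up 38.6% of the best-ranked 25% by worse rank, and 28.4%, 16.8% and 12.1% of the following groups of 25%. In 55 regions a peak of replicate 2 also overlapped a combined peak, and in 32 of these every overlapping peak of replicate 2 did. The 32 sites count as left out through the position of the replicate 1 peak alone.

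Small offsets between the centres of overlapping peaks were more frequent than large ones. For each left-out peak of replicate 1, the closest overlapping peak of replicate 2 had its centre at a median distance of 140 bp. That distance was within 100 bp for 39.6% of left-out peaks. The number of peaks fell in every step of 50 bp, from 2332 (21.6%) at under 50 bp to 442 (4.10%) at 450 to 500 bp. Shared peaks in the combined list lay closer, at a median of 45 bp, with 52.5% at under 50 bp. Within the left-out peaks the median offset grew from 101 bp in the best-ranked 25% of replicate 1 to 134, 167 and 179 bp in the following groups. Taking the closest of several overlapping peaks favours small offsets in both classes. The median best overlap was 353 bp, and in 7813 left-out peaks (72.5%) it reached 50% or more of the usual replicate 2 width of 456 bp.

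**Figure D3:**
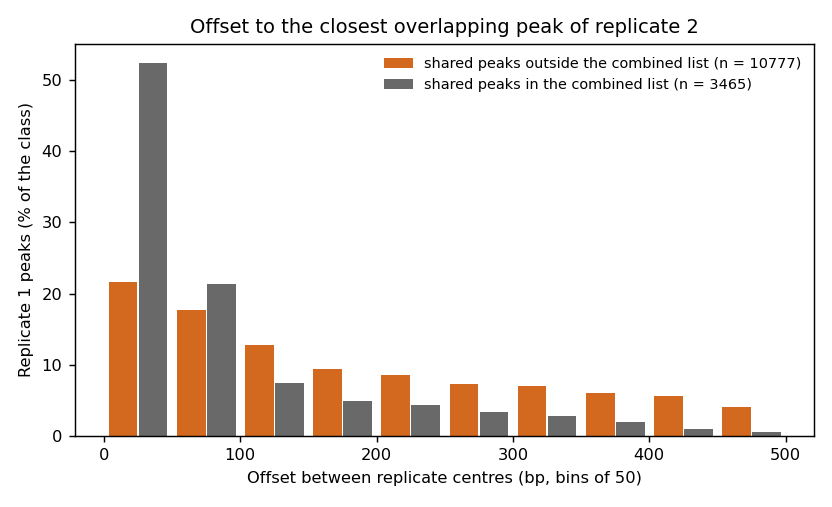
Bars give the percentage of shared replicate 1 peaks (y axis) by the distance between their centre and that of the closest overlapping replicate 2 peak (x axis, bins of 50 bp), for 10777 peaks outside and 3465 peaks in the combined list. Both classes are highest at under 50 bp, 21.6% and 52.5%, and the left-out peaks keep more of their number at long offsets.

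Peaks just inside and just outside the overlap rule had median ranks of similar size. Outside the combined list, 515 peaks of replicate 1 overlapped replicate 2 by no more than 50 bp, with a median rank of 13658. Another 447 missed it by 50 bp or less, with a median rank of 14490. Among shared peaks, 17 ended within 50 bp of a combined peak without touching it (median rank 9041) and 18 overlapped one by no more than 50 bp (median rank 11334).

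The best-ranked left-out regions are given for chromosomes II, III, IV, V and X, 3 for each, by their worse rank. Ranks up to 968 in replicate 1 and up to 1941 in replicate 2 belong to the tied highest score. Their order follows peak number, not score. Chromosome V held the best of them, at 13716419 to 13716948, with rank 138 in replicate 1 and rank 822 in replicate 2, at 711 bp from the nearest combined peak. The second on V, at 15354640 to 15355169, had ranks 918 and 500 and lay 39691 bp from any combined peak. The third on V, at 8035 to 9235, close to the left end of the chromosome, had ranks 458 and 1529 and was made of 3 replicate 1 peaks. All 3 carried the highest score of both lists, so the score does not order them.

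On chromosome III the best region, at 5024576 to 5025412, had ranks 895 and 844, so both replicates placed it among their first 1000 nuclear peaks, and it lay 6000 bp from the nearest combined peak. A region on III at 9546182 to 9546711 had ranks 1261 and 239, but lay 27 bp from a combined peak at 9546028 to 9546155, and its replicate 2 peak overlapped that combined peak. The third on III, at 10330900 to 10331429, had ranks 1364 and 2175 at a distance of 1731 bp. Of these 3, only the one at 9546182 owes its place to a replicate 2 peak that the combined list also covers.

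On chromosome X the best regions were at 4222488 to 4223469 (ranks 930 and 1348), 7291269 to 7291798 (1835 and 1752) and 17419519 to 17420248 (1396 and 2032). They lay 13074, 24962 and 3468 bp from the nearest combined peak. The first reached the highest score in both lists, the second in replicate 2 alone and the third in neither.

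Chromosomes II and IV held lower-ranked leaders. Those of II were at 5605590 to 5606119 (ranks 1022 and 1705), 14603852 to 14604381 (2019 and 2619) and 7790543 to 7791286 (2303 and 2951), with distances of 5620, 5088 and 18787 bp. Those of IV were at 5973317 to 5974533 (1033 and 2264), 6601223 to 6601752 (2023 and 2604) and 12121014 to 12121543 (2183 and 2715), with distances of 5778, 15386 and 34261 bp. By score with ties ordered by peak number, replicate 1 gave the better rank in all 6 regions. The one at 5605590, however, held the tied highest score in replicate 2 and not in replicate 1, so its rank 1705 rests on peak number. By peak number alone, replicate 1 was better only for the one at 7790543, with places 1468 and 3078, and the other 5 stood better in replicate 2. By peak number, the leading region of II stood at place 2474 in replicate 1 and that of IV at 2463, more than 1000 places lower than by score in each case.

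The 3 widest regions lay on X at 4144746 to 4146962, on III at 7950742 to 7952783 and on II at 14601040 to 14603063, with widths of 2217, 2042 and 2024 bp. They were made of 6, 5 and 5 peaks of replicate 1 and overlapped 5, 3 and 3 peaks of replicate 2. Their best ranks were 3998 and 2037 on X, 8425 and 5793 on III, and 996 and 5184 on II. The region on II and the leader at 14603852 have the same nearest combined peak, at 14598255 to 14598764.

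At the other end, the region with the largest worse rank lay on V at 19216598 to 19217486. It ranked 4289 in replicate 1 and 29479 in replicate 2. The next, on III at 9317665 to 9318194, ranked 10449 and 29471, and the last, on chromosome I, ranked 4062 and 29469. Each of the 3 was listed near the end of replicate 2 and in the upper or middle part of replicate 1.

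Left-out regions lay closer to combined peaks than peaks of a single replicate did. The median distance to the nearest combined peak was 8621 bp, with quartiles at 2790 and 22770 bp. For regions of replicate 1 peaks that were outside the combined list and not shared, the median was 12587 bp. Starting from replicate 2, the medians were 8562 bp for shared and 12253 bp for unshared regions, so both lists gave the same order. Within 10 kb of a combined peak stood 4547 of the 8483 regions (53.6%, 95% CI 52.5 to 54.7), against 43.4% of unshared regions and 47.8% of all merged regions outside the combined list. From replicate 2 these shares were 54.0%, 44.2% and 47.8%. Within 1 kb stood 924 regions (10.9%) and within 100 bp 36 (0.424%). Beyond 50 kb stood 674 (7.95%) and beyond 100 kb 131 (1.54%).

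**Figure D4:**
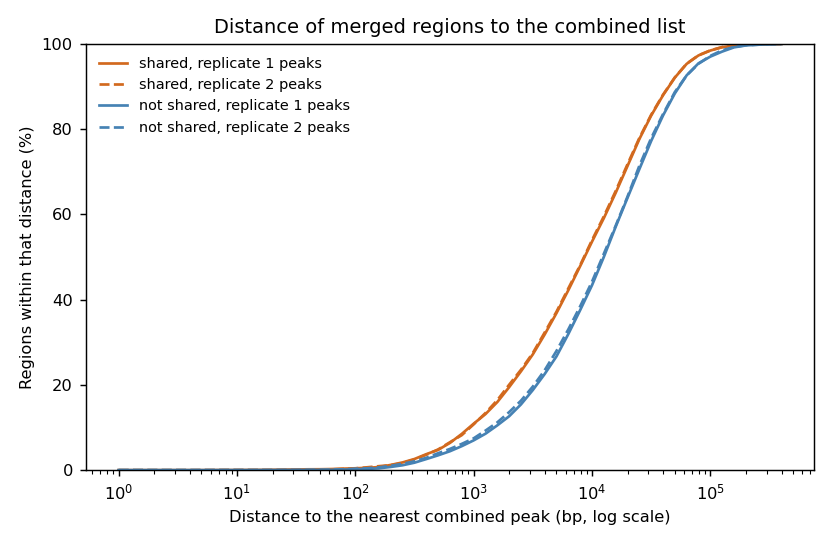
Curves give the percentage of merged regions (y axis) that lie within a given distance of the nearest combined peak (x axis, bp on a log scale), for shared regions outside the combined list (orange) and unshared regions (blue), built from replicate 1 (solid) or replicate 2 (dashed) peaks. The orange curves lie above the blue ones over most of the range: 53.6% against 43.4% within 10 kb for replicate 1, and the 2 replicates nearly coincide.

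The difference in distance was smaller among high-ranked peaks. In the best-ranked 25% of replicate 1, 56.9% of left-out shared peaks and 56.2% of unshared peaks lay within 10 kb of a combined peak. In the following groups of 25% the shares were 55.7% against 46.2%, 52.8% against 41.9%, and 52.6% against 40.6%. In replicate 2 they were 57.4% against 53.6%, 54.9% against 47.4%, 53.4% against 42.2%, and 52.1% against 41.7%. Read by distance, the share overlapped by replicate 2 was 57.1% for merged regions within 250 bp of a combined peak, 51.7% at 250 to 500 bp and 59.9% at 500 to 1000 bp. It was 46.0% at 5 to 10 kb and 30.7% beyond 100 kb. Starting from replicate 2, the shares were 42.2%, 45.7%, 52.4%, 40.2% and 26.0%, so in both lists the share was highest at 500 to 1000 bp and not next to the combined peaks. The density of peaks also differs between these surroundings, and its part in the result was not tested. The median worse rank of left-out regions was 13814.5 within 250 bp, 13535 at 250 to 500 bp, 13416 at 500 to 1000 bp, 15858 at 5 to 10 kb and 19915 beyond 100 kb. From replicate 2 it was 15333, 13173, 14427.5, 15820 and 20323.5, so the most distant regions ranked lowest in both, with no steady order below 1 kb.

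The 3 regions closest to a combined peak were on II at 14050828 to 14051720 (6 bp), on III at 1859062 to 1859591 (7 bp) and on II at 10075438 to 10075967 (13 bp, level with 1 region on X). In each, an overlapping replicate 2 peak also overlapped a combined peak. Their ranks in replicate 1 were 12659, 17736 and 13401, and in replicate 2 they were 6197, 433 and 914. The 3 most distant regions were on X at 5669 to 6198 and at 59073 to 59966, and on V at 17262363 to 17262892. They lay 346921, 293153 and 296429 bp from any combined peak. Their ranks were 12193 and 16283, 12373 and 2298, and 10668 and 12657. Among these 3, only the X region at 59073 ranked high in either list.

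Chromosome III was the densest in left-out regions and V the sparsest. III held 1456 regions, or 105.7 per Mb, and V held 1403, or 67.1 per Mb. Chromosomes I, II and IV held 1362, 1360 and 1308 regions, or 90.5, 89.0 and 74.8 per Mb, and X held 1594 regions at a density between those of I and II. Relative to the whole nuclear genome these densities were 1.07, 1.05, 1.25, 0.884, 0.793 and 1.06 for chromosomes I to V and X in turn. Combined peaks had ratios of 1.09, 1.09, 1.24, 0.817, 0.846 and 1.03, and unshared regions of replicate 1 had 1.09, 0.983, 1.15, 0.964, 0.866 and 1.01. From replicate 2 the left-out regions gave 1.26 on III and 0.796 on V. The span of a chromosome was taken as the largest peak end over the 3 lists.

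Over all chromosomes together, left-out regions were more central than unshared ones and less central than combined peaks. On X alone left-out regions had a higher central share than combined peaks, but with overlapping intervals. The central 33.3% of the chromosomes held 3160 of 8483 regions (37.3%, 95% CI 36.2 to 38.3). All merged regions of replicate 1 had 35.0% there, those outside the combined list 34.2%, unshared ones 31.8% (30.9 to 32.7) and combined peaks 40.6%. From replicate 2 the left-out regions had 37.5%, against 35.5% for all its regions, 34.9% for those outside the combined list and 33.4% for unshared ones. The centres of C. elegans autosomes are known as regions of low recombination, while the X chromosome is more even along its length. The share was 41.1% on V, 38.9% on II, 38.2% on I, 36.9% on IV, 34.7% on III and 34.3% on X. Combined peaks had 50.8%, 41.2%, 43.6%, 39.4%, 37.4% and 31.4% on the same chromosomes. The intervals of left-out regions on III (32.3 to 37.2) and X (32.0 to 36.7) include the 33.3% that an even spread gives, and neighbours in this order overlap in their intervals. Those of combined peaks on III (33.1 to 41.9) and X (27.4 to 35.6) include it too. The intervals of left-out regions and combined peaks were apart on V only, at 38.6 to 43.7 against 46.4 to 55.3.

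The central share rose with rank. By worse rank, the best 25% of left-out regions had 40.9% in the central 33.3%, and the following groups had 38.4%, 35.3% and 34.4%. Of the 100 best, 54 were central, 27 were on V and 68 lay within 10 kb of a combined peak. Over all 8483 regions, 37.3% were central, 1403 were on V and 53.6% lay within 10 kb. With the 100 best taken by peak number, the 3 counts were 53, 25 and 66. Within each group of 25% by rank in replicate 1, shared left-out peaks were more central than unshared ones. The shares were 41.2% against 36.7%, 37.9% against 34.0%, 36.9% against 30.9%, and 34.8% against 30.5%. In replicate 2 this order held for the 3 lower groups, but not for the best-ranked 25%, with 41.1% for shared and 41.5% for unshared peaks. Intervals overlapped in the best-ranked group of replicate 1 (39.3 to 43.0 against 33.8 to 39.7). They also overlapped in the third group of replicate 2 (33.8 to 37.6 against 31.3 to 34.0). Ranks were not matched further within a group.

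**Figure D5:**
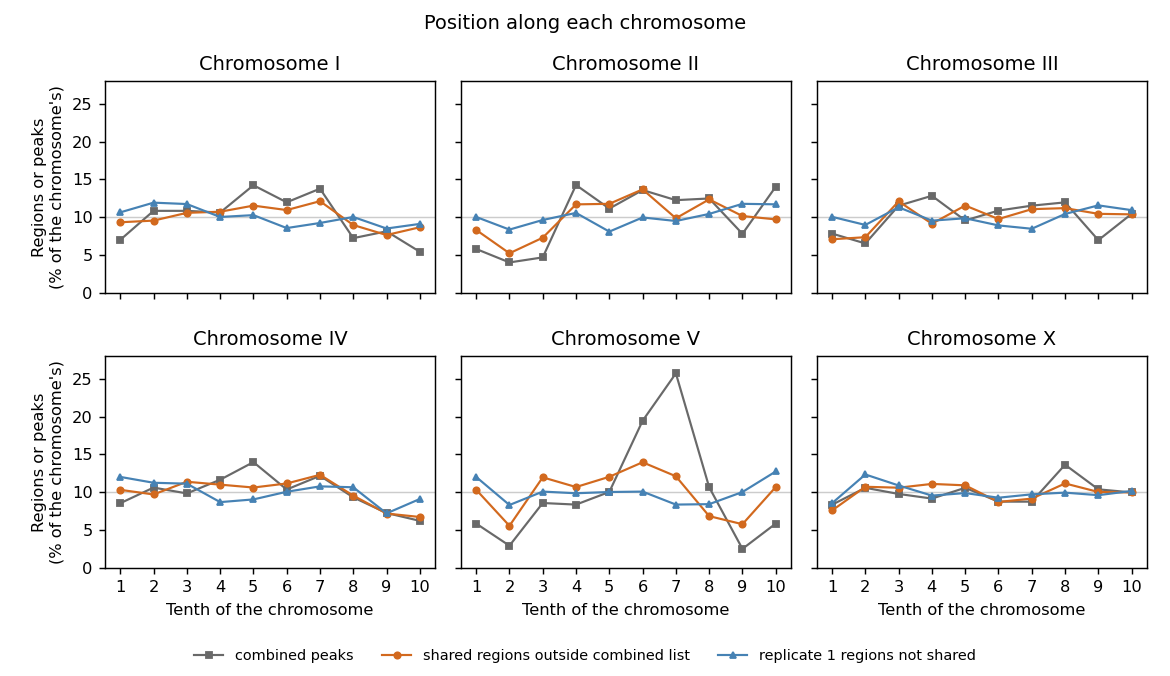
For each nuclear chromosome cut into 10 equal segments from left to right (x axis), points give the percentage of that chromosome's regions or peaks in each segment (y axis, grey line at an even 10%), for combined peaks (dark grey squares), shared regions outside the combined list (orange circles) and unshared regions of replicate 1 (blue triangles). On V the shared regions range from 5.56% in segment 2 to 14.0% in segment 6, while combined peaks reach 25.7% in segment 7.

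Along V the left-out regions varied less than the combined peaks and lay on the same side of an even 10% in some segments only. Segments 6 and 7 of 10 held 14.0% and 12.1% of the left-out regions of V, against 19.5% and 25.7% of its combined peaks. Segments 2 and 9 held 5.56% and 5.77% of left-out regions, against 2.93% and 2.51% of combined peaks and 8.31% and 10.0% of unshared regions. At the ends the classes differed, as segments 1 and 10 held 10.3% and 10.7% of left-out regions and 5.86% each of combined peaks. Segment 8 held 6.84% of left-out regions and 10.7% of combined peaks. On II the emptiest segment was also segment 2, with 5.22% of left-out regions and 4.01% of combined peaks, and segment 6 held most, with 13.7%.

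In 197 full bins of 500 kb the median was 42 left-out regions, with quartiles at 34 and 51. Every bin held at least 6. Across these bins the count of left-out regions had a Spearman's rho of 0.63 with that of combined peaks, of 0.55 with that of unshared replicate 2 regions and of 0.33 with that of unshared replicate 1 regions. Combined peaks had 0.42 with unshared replicate 2 regions and 0.20 with those of replicate 1. These values are descriptions across bins that share libraries and chromosomes. The fullest bin was on III at 5.5 to 6 Mb, with 93 left-out regions beside 21 combined peaks, followed by III at 3.5 to 4 Mb with 85 beside 20. The emptiest was on V at 17 to 17.5 Mb, with 6 left-out regions beside 0 combined peaks, and there 27 regions of replicate 1 were unshared. Combined peaks outnumbered left-out regions on V at 14 to 14.5 Mb (35 against 29) and at 15 to 15.5 Mb (23 against 15). The rule takes out peaks that overlap combined peaks, which lowers the count of left-out regions where combined peaks are dense.

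Many left-out regions stood within 10 kb of each other, as unshared regions did, and not all such groups contained a combined peak. Joining regions within 10 kb of each other gave 2838 groups, of which 1106 were single regions. Groups of 5 or more regions numbered 561 and held 4218 regions (49.7%), and 205 of these groups contained no combined peak. Unshared regions were grouped to a like or larger extent, with 49.2% of those of replicate 1 and 70.1% of those of replicate 2 in groups of 5 or more, against 51.4% of left-out regions from replicate 2, and these sets differ in size. The following were picked for their size after the values were seen. The largest group, on chromosome I, held 22 regions in 73.8 kb and 6 combined peaks. On III, 21 regions stood at 5900388 to 5969271 with 2 combined peaks, and 20 at 3764251 to 3830925 with 5. On X, 20 regions stood at 3280182 to 3352028 with no combined peak among them, and the smallest worse rank there was 5937.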

How the data were processed

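Peak lists of 2 ChIP libraries and 1 combined list were used. Input values were not analysed here. Per the file headers and source column, the caller was SPP, with the irreproducible discovery rate (IDR) step, and the build was WS220. How lists were combined is not stated, and the aligner, settings and thresholds were not given in the sources used here. The score in the deposited lists has no stated scale. It served for ranking within 1 list, with ties ordered by peak number.

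Lists were read without mitochondrial peaks. Overlap meant 1 bp or more, and distance is the difference between facing edges. Intervals of shares are 95% Wilson intervals. For the comparison of settings, medians had 95% binomial intervals taken from the ordered values. The chromosome ratio had a 95% interval computed from counts on a log scale. Reported regions were named by a fixed rule: the 3 with the smallest worse rank on each of II, III, IV, V and X, and the 3 widest, 3 farthest from and 3 nearest to a combined peak, and 3 with the largest worse rank. Coordinates on chromosome I are not reported here. The members, lists and rules were chosen with earlier results of these data known. The reference at hand is of build WBcel235 and was not used. The functions were tested on simulated lists with planted overlaps and distances. Scripts ran under Python 3.11.15 with pandas 2.3.3, numpy 2.4.6, scipy 1.17.1 and, for plots, matplotlib 3.10.9. Alternatives to overlap, merging, starting list, rank limit, distance and central share were tried.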

Additional observations from a re-analysis of the deposited data

Results flagged for a closer look

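Mitochondrial DNA lies outside the rule that defined the regions, and it carried peaks that met the overlap parts of that rule. In replicate 1, 22 of 22 mitochondrial peaks overlapped replicate 2 and no combined peak, as the combined list holds 0 mitochondrial peaks, and in replicate 2 the count was 25 of 26. How much of mitochondrial DNA the peaks of each list cover was not measured, so these overlaps carry no test. The median ranks of mitochondrial peaks in the whole lists were 20 and 43, and their lowest ranks 9277 and 12688. They drew attention because they are a signal in data that the report did not use. With no input values, the cause was not tested.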

How the results depend on the processing

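Of 68 values under another setting, 32 stayed within 1.5 times (counts) or within the 95% interval of the reported value, and 36 moved, with causes not tested beyond what each setting fixes by construction. The values in turn are, where they moved, the count of regions, the median positions in replicates 1 and 2 as a percentage of each list, the central share, the median distance to a combined peak and the share within 10 kb. With overlap of 50% of both peaks the position in replicate 1 was 39.8%. With centres within 100 bp the count was 4104, the positions 38.1% and 35.6% and the central share 38.4%. Unmerged peaks gave a position of 45.8% in replicate 1 and a distance of 8281 bp. Merging within 1 kb gave 38.5%, 34.9%, 9196 bp and 52.2%. Starting from replicate 2 gave a position of 38.5% in replicate 2. Requiring no combined peak within 1 kb gave a position of 38.2% in replicate 2, 10487 bp and 48.6%. The better-ranked 50% of each list gave 3494 regions, 23.6%, 22.2%, 40.3%, 7340 bp and 57.2%. Leaving out a replicate drops the requirement of overlap. Without replicate 1 and without replicate 2 the counts were 21735 and 17874, the position 52.1% in replicate 2 and 52.7% in replicate 1, the central shares 34.9% and 34.2%, the distances 10862 and 10922.5 bp, and the shares within 10 kb 47.8% and 47.8%. The ratio of the densest to the sparsest chromosome, 1.58, was then 1.42 and 1.45, and III was densest and V sparsest under each of the 9 settings that changed the regions. The central 50% of chromosomes held 55.6% of regions. Within 1 kb and 50 kb of a combined peak stood 10.9% and 92.1%. Sharing the rank of tied scores changed neither position. Ordering by peak number and the chromosome ratios were chosen after seeing the data. No paired analysis was possible because no result compares groups, the inputs having no values here. The motif and gene descriptions were not run, as no genome of build WS220 was used. Depth is unknown, so whether deeper libraries would move left-out regions into the combined list was not examined.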
